A study of Drosophila melanogaster with 6 samples.

Results

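The 7 genes Rbp9, fne, Syt1, unc-13, cpx, Gad1 and nrv3 encode neuronal RNA-binding proteins, parts of the synaptic vesicle release machinery, the enzyme that makes GABA and a subunit of the sodium pump. They were taken by symbol from the 3326 genes that the authors' deposited table lists as changed by knockdown of domino (dom), out of 11859 genes behind its adjusted p-values. All 7 were found there, each once. They were chosen by the measured values of this comparison, being neuron markers with an adjusted p below 0.05 and a lower level in the knockdown, so their presence, direction and ratios are described here without a test.

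RNA was sequenced from live GFP-positive cells sorted from brains of wandering Drosophila melanogaster larvae. In both groups the mothers carried UAS::Dcr-2, insc::Gal4 and UAS::CD8-GFP. For the wild type group they were crossed to w1118 males, and for the knockdown group to w1118 males with UAS::dom-RNAi, a hairpin against dom, with 3 libraries in each group. The insc driver is active in neuroblasts, the stem cells of the fly brain, so neurons can enter the sort through the GFP they keep from their progenitor. By which route each cell type entered was not measured. The Dcr-2 transgene, which strengthens RNA interference, was in both groups, but Dcr-2 was 1.87-fold higher in the knockdown (log2 0.90, SE 0.23) per the authors' deposited table. The labels name no hairpin in the wild type cross. Whether libraries of a group stem from separate sets of larvae is not in the labels, and the p-values then measure only the spread between these libraries, which may be technical. The table holds 1 comparison of the groups and no values per library, so neither the level in each library nor the overlap of the groups can be shown, and read depth is unknown. Signs are given here as knockdown over wild type. In that direction dom itself stood at 67.1% of wild type per the authors' deposited table, and it was 1 of 2 genes, with the eye colour gene w, used to read the sign of the column.

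In most lineages, a fly neuroblast divides to give smaller progeny that divide once more into neurons or glia. Young neurons then switch on RNA-binding proteins of the ELAV family, which bind U-rich stretches of transcripts and control their splicing, 3' ends and stability, and later the genes for excitability and transmitter release. At the synapse, the vesicle is primed by Unc-13, held by complexin on the SNARE proteins, and released when calcium binds synaptotagmin. The sodium pump keeps the ion gradients on which firing depends.

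Rbp9 (FBgn0010263), an ELAV family gene active in neurons and in the female germ line, lies at 2L:2954762-2968434 on the plus strand (dm6). It was at 15.3% of the wild type level in the knockdown, with 95% limits of 12.4% and 18.7%, from the log2 ratio of -2.71 (SE 0.15) per the authors' deposited table. This was a 6.55-fold lower level. The DESeq2 adjusted p per the authors' deposited table was 3.92e-69, the 10th smallest p-value of all 3326 listed genes. By size it ranked 21st of the 1680 genes that were lower, and 4th among the lower genes whose mean normalized count was at least 1000. The mean normalized count of Rbp9 over all libraries was 1780 per the authors' deposited table, and 53.0% of listed genes had a lower one. Of its annotated exon bases 1.76% overlap Ts, a gene on the other strand that was not listed.

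The other ELAV family gene in the table, fne (FBgn0086675, X:12917477-12950417, plus strand), whose name stands for found in neurons, was at 54.8% of wild type, with 95% limits of 41.3% and 72.7%. Its log2 ratio was -0.87 (SE 0.21, DESeq2 adjusted p 2.80e-04) per the authors' deposited table. The difference between the log2 ratios of Rbp9 and fne was -1.84, and their 95% limits did not overlap. Both ratios come from the same libraries, and the difference was not tested. The authors' mean normalized counts, divided here by the annotated exon length in kilobases, were 9781 for fne and 221 for Rbp9, so the member that fell more was the rarer transcript. The founding member elav, the usual marker of fly neurons, was not listed. A gene outside the table either missed the threshold or went untested, and its ratio is unknown. A gene called not listed here could also stand in the table under 1 of the 62 IDs that matched no symbol.

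The 3 vesicle release genes had ratios close to each other. Syt1 (FBgn0004242, 2L:2772327-2799979, minus strand) encodes the calcium sensor of fast release and was at 66.0% of wild type (95% limits 50.7% and 86.1%). Its log2 ratio was -0.60 (SE 0.19, DESeq2 adjusted p 0.0107) per the authors' deposited table. unc-13 (FBgn0025726, 4:867824-912331, minus strand), the vesicle priming factor, was at 67.5% (95% limits 55.2% and 82.6%), with a log2 ratio of -0.57 (SE 0.15, adjusted p 0.0010) per the authors' deposited table. For cpx (FBgn0041605, 3R:4280221-4304604, plus strand), which encodes complexin, the level was 68.8% (95% limits 55.5% and 85.2%) and the log2 ratio -0.54 (SE 0.16, adjusted p 0.0037) per the authors' deposited table. These limits overlap almost entirely, so no order among the 3 genes can be read.

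Gad1 (FBgn0004516, 3L:4074077-4088744, minus strand) encodes glutamate decarboxylase, which makes GABA, the main inhibitory transmitter. It was at 60.0% of wild type (95% limits 46.2% and 78.0%), with a log2 ratio of -0.74 (SE 0.19, DESeq2 adjusted p 9.66e-04) per the authors' deposited table. nrv3 (FBgn0032946, 2L:21380000-21393319, plus strand), a beta subunit of the sodium pump found in the nervous system, was at 72.0% (95% limits 56.1% and 92.5%). Its log2 ratio of -0.47 (SE 0.18) and adjusted p of 0.0383 per the authors' deposited table put it nearest to the threshold of 0.05, and genes just outside the threshold have no values.

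**Figure D1:**
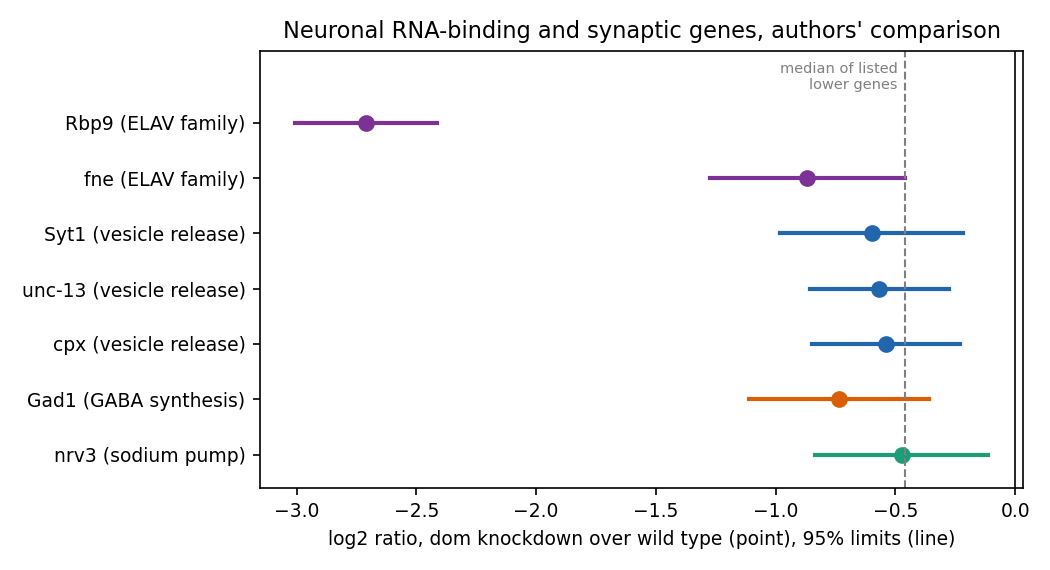
Log2 ratio of dom knockdown over wild type (horizontal axis) for the 7 genes, with points for the authors' ratios, lines for 95% limits from the authors' standard errors and colours for the role of each gene. Rbp9 lies at -2.71, the other 6 lie between -0.87 and -0.47, and the dashed line marks the median of all listed lower genes, -0.46.

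Apart from Rbp9, the 7 genes were changed modestly. The median log2 ratio of the 7 was -0.60, beside -0.46 over all 1680 lower genes and -0.20 over all 3326 listed genes, higher and lower. Of the genes behind the adjustment 14.2% were lower and 13.9% higher, 28.0% in all. The count of 7 of 7 lower was fixed by the choice of the genes, so nothing is read from it. Only Rbp9 of the 7 was at least 2-fold lower, as were 239 of all lower genes.

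The transcripts were abundant and their genes long. Syt1, unc-13, cpx, nrv3 and fne each had a mean normalized count above that of at least 94.5% of the listed genes, the highest being fne at 93512 per the authors' deposited table. For Gad1 the mean was 4947 per the authors' deposited table, above 72.2% of listed genes. The annotated spans ran from 13.3 kb for nrv3 to 44.5 kb for unc-13 (median 24.4 kb), against a median of 3.32 kb over all listed genes, and each span was longer than that of at least 82.9% of them. Abundance moved with direction in the table as a whole: outside the neuronal gene lists described below, 52.7% of the 2949 listed protein-coding genes were lower, against 68.9% of those with a mean of at least 1000 and 61.9% of those that also spanned at least 10 kb. In the same class of abundance and span, 25 of the 31 listed genes of the neuronal lists were lower, or 18 of 24 (75.0%) without the 7 genes. The part of abundance in the ratios of the 7 genes was not tested.

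**Figure D2:**
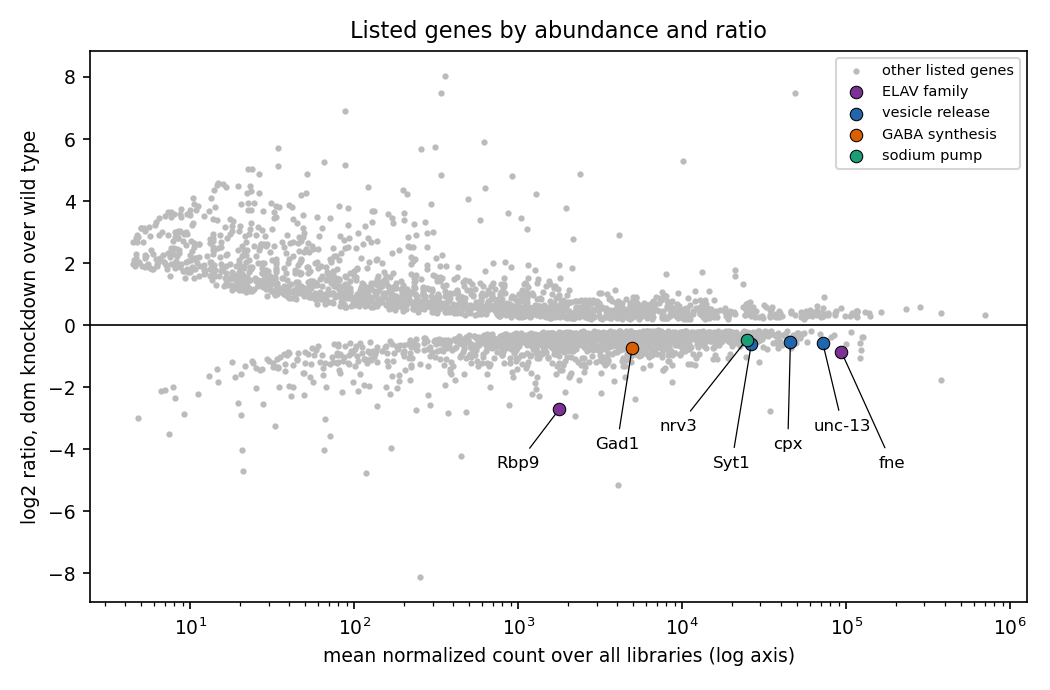
Log2 ratio of dom knockdown over wild type (vertical axis) against the mean normalized count over all libraries (horizontal log axis) for the 3326 listed genes, with the 7 genes coloured by role and labelled. Rbp9 stands below most genes of its abundance, while the other 6 lie near the band of lower genes at means from 4947 to 93512; the empty band around 0 holds the genes that the table leaves out.

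The standard errors of the 7 genes were larger than the median of listed genes of like abundance. Errors of genes outside the table are unknown, and a small error helps a gene to be listed. A gene with a larger ratio can be listed at a larger error, and the size of the ratio was not matched here. For each gene, the authors' standard error was divided by the median of listed genes with a mean within 2-fold of its own. The quotient was above 1 for 7 of 7 genes, from 1.24 for Rbp9 to 2.08 for fne, with a median of 1.83. Among the 44 other listed genes of the neuronal lists it was above 1 for 31, with a median of 1.34. For fne the standard error was 0.21 where listed genes of its abundance had a median of 0.10 per the authors' deposited table, and for Syt1 it was 0.19 against 0.10. Which libraries carried this spread cannot be seen without values per library.

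**Figure D3:**
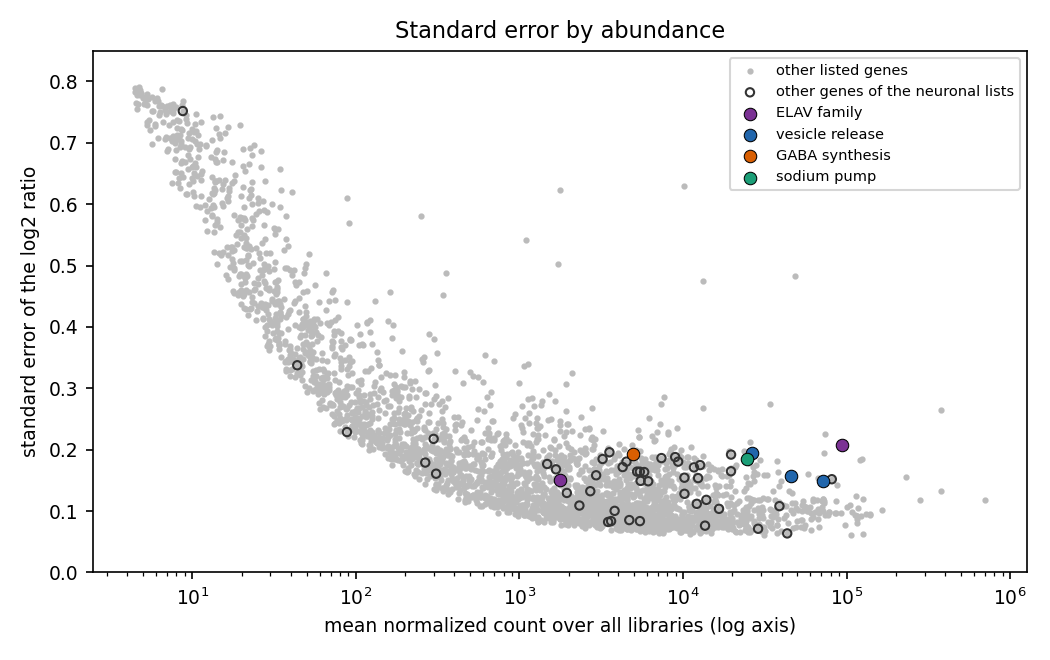
Standard error of the log2 ratio (vertical axis) against the mean normalized count over all libraries (horizontal log axis) for all listed genes in grey, the other genes of the neuronal lists as open circles and the 7 genes coloured by role. The errors of fne, Syt1, Gad1 and nrv3, from 0.18 to 0.21, lie above most listed genes of their abundance.

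Beyond the 7 genes, 9 lists of neuronal genes were read from the same table. They held 125 other genes, of which 44 were listed, 33 lower and 11 higher. As shares of the 125 this was 26.4% lower and 8.80% higher, beside 14.2% and 13.9% over all genes tested. Here and below, the shares of a list count all its genes, some of which may not have been tested. The median log2 ratio of the 33 lower genes was -0.57 and that of the 11 higher genes 0.60. The lists differed from each other, and none was tested as a set. The part of abundance in their shares was not tested.

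Among 18 RNA-binding regulators outside the ELAV family, 4 were listed, all lower, a share of 22.2% beside 14.2% of all genes. They were Fmr1, the fly counterpart of the fragile X gene and a repressor of translation, at a log2 ratio of -0.34 (SE 0.07), the CELF family gene bru3 at -0.54 (SE 0.19), the splicing regulator heph at -0.28 (SE 0.10) and Syp, a regulator of neuroblast timing, at -0.40 (SE 0.15) per the authors' deposited table. The genes pum, mbl, Rbfox1, orb2 and msi were among the 14 not listed.

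Besides Syt1, unc-13 and cpx, 8 of 27 vesicle release genes were lower and 1 was higher, beside 14.2% and 13.9% of all genes. With the 3 chosen genes, 36.7% of the list was lower and 3.33% higher, but those 3 were picked for being lower. Synapsin (Syn), which tethers vesicles in the reserve pool, was at 53.2% of wild type with a log2 ratio of -0.91 (SE 0.19) per the authors' deposited table. The presynaptic calcium channel gene cac was at 65.0% (log2 -0.62, SE 0.13), and Tomosyn, an inhibitor of SNARE assembly, at 63.2% (log2 -0.66, SE 0.16) per the authors' deposited table. These values sit beside those of the 3 chosen genes. Smaller ratios were those of Nsf2, which takes SNARE complexes apart, at -0.38 (SE 0.09) and of the active zone scaffold gene Liprin-alpha at -0.33 (SE 0.08) per the authors' deposited table. Rim, Syt7 and alphaSnap were the other lower genes. The one that rose was a synaptotagmin, Sytalpha, at 2.38-fold the wild type level (log2 1.25, SE 0.17, DESeq2 adjusted p 3.90e-12) per the authors' deposited table, so synaptotagmin genes changed in both directions. The SNARE genes Syx1A, nSyb and Snap25, the Unc-18 homolog Rop and the active zone gene brp were not listed.

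Genes that take vesicle membrane back from the surface were also lower where listed. Of 14 such genes 7 were lower and 0 higher, a share of 50% beside 14.2% of all genes, with a median log2 ratio of -0.31. The listed ones had a median mean normalized count of 7376. Among listed protein-coding genes outside the neuronal lists, 71.8% were lower where the mean was at least 1000 and the span below 10 kb. The lower genes of that class had a median log2 ratio of -0.39. The part of abundance in the share of 50% was not tested. The F-BAR protein gene nwk had the lowest ratio, -0.72 (SE 0.19), followed by Amph, which encodes amphiphysin, at -0.44 (SE 0.11) and the endophilin gene EndoA at -0.43 (SE 0.12) per the authors' deposited table. Synj, the clathrin adaptor gene AP-2sigma and the clathrin heavy chain gene Chc lay between -0.28 and -0.20 per the authors' deposited table. The dynamin gene shi was not listed. Clathrin, its adaptor and several other genes of this list act in all cells, not in neurons alone.

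Beside Gad1, genes that act on GABA were found in 2 lists. Of 6 GABA receptor genes 2 were lower and 1 higher, 33.3% and 16.7% beside 14.2% and 13.9% of all genes. VGAT, which loads GABA into vesicles, was at 52.6% of wild type (log2 -0.93, SE 0.16, DESeq2 adjusted p 3.41e-07) per the authors' deposited table, with limits that overlap those of Gad1. The receptor genes GABA-B-R2 and Lcch3 were lower, at 52.7% (log2 -0.92, SE 0.17) and 60.8% (log2 -0.72, SE 0.18) per the authors' deposited table. Gat, the membrane transporter that clears GABA and is known from astrocyte-like glia in the fly, was 1.74-fold higher (log2 0.80, SE 0.22), with a mean normalized count of 299, per the authors' deposited table. Grd, a receptor subunit gene with a mean of 43.8, was 1.80-fold higher (log2 0.85, SE 0.34) per the authors' deposited table, and Rdl, GABA-B-R1 and GABA-B-R3 were not listed. Gabat and Ssadh, whose enzymes break GABA down, were not listed either. Of the exon bases of Lcch3 and Grd, 31.3% and 27.5% are shared with other annotated genes.

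In the list for transmitter synthesis and transport, 3 of 19 genes were lower (15.8%, near the 14.2% of all genes) and 5 higher (26.3% beside 13.9%). Without the chosen Gad1, 2 of 18 were lower. The higher genes were Gat and 4 amine genes. Trhn, which makes the precursor of serotonin, and Vmat, which loads amines into vesicles, were higher at log2 ratios of 0.60 (SE 0.16) and 0.50 (SE 0.13) per the authors' deposited table. The octopamine enzyme gene Tbh and the dopamine enzyme gene ple were the other amine genes that were higher, and Ddc, which acts in both the dopamine and the serotonin pathway, was lower at -0.57 (SE 0.18) per the authors' deposited table. Mean normalized counts per the authors' deposited table were 1947 for Vmat, 309 for Trhn and 265 for Ddc. Of the exon bases of Vmat 26.2% are shared with other annotated genes. The amine genes DAT, SerT, Tdc1, Tdc2 and Hdc, the acetylcholine genes ChAT and VAChT and the glutamate transporter gene VGlut were not listed.

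Of 8 sodium pump genes 1 was higher, 12.5% beside 13.9% of all genes. The only lower one was nrv3, chosen for being lower. Of the other 7 genes 0 were lower, beside 14.2% of all genes. The higher one was JYalpha, an alpha subunit gene at a mean normalized count of 8.75 and a log2 ratio of 3.74 (SE 0.75) per the authors' deposited table. The main alpha subunit gene Atpalpha and the other beta subunit genes nrv1 and nrv2 were not listed. The list of 20 voltage-gated channel genes also holds channels that voltage does not gate, such as SK. Of the 20, 9 were lower and 2 higher, a share lower of 45% beside 14.2% of all genes. Hk, a beta subunit of Shaker potassium channels, Shaw, another potassium channel gene, and Ca-alpha1D, a calcium channel gene, had the lowest levels of this list. Their levels per the authors' deposited table were 43.6% (log2 -1.20, SE 0.13), 44.8% (log2 -1.16, SE 0.17) and 45.9% (log2 -1.12, SE 0.20). These 3 ratios lay below those of all 7 genes except Rbp9. SK and Ih followed at -0.82 (SE 0.15) and -0.67 (SE 0.15) per the authors' deposited table. eag, a potassium channel gene, was higher at 0.70 (SE 0.16) per the authors' deposited table, as was SLO2, while Sh was not listed. The sodium channel gene para was not matched by its current ID, and it could stand under a listed ID without a symbol. In the list for the neuronal cytoskeleton and synaptic adhesion, 2 of 14 genes were listed: Nrx-1, which encodes neurexin, was lower at -0.65 (SE 0.15), and the stathmin gene stai was higher at 0.28 (SE 0.11) per the authors' deposited table. That share was below the background of 28.0%.

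**Figure D4:**
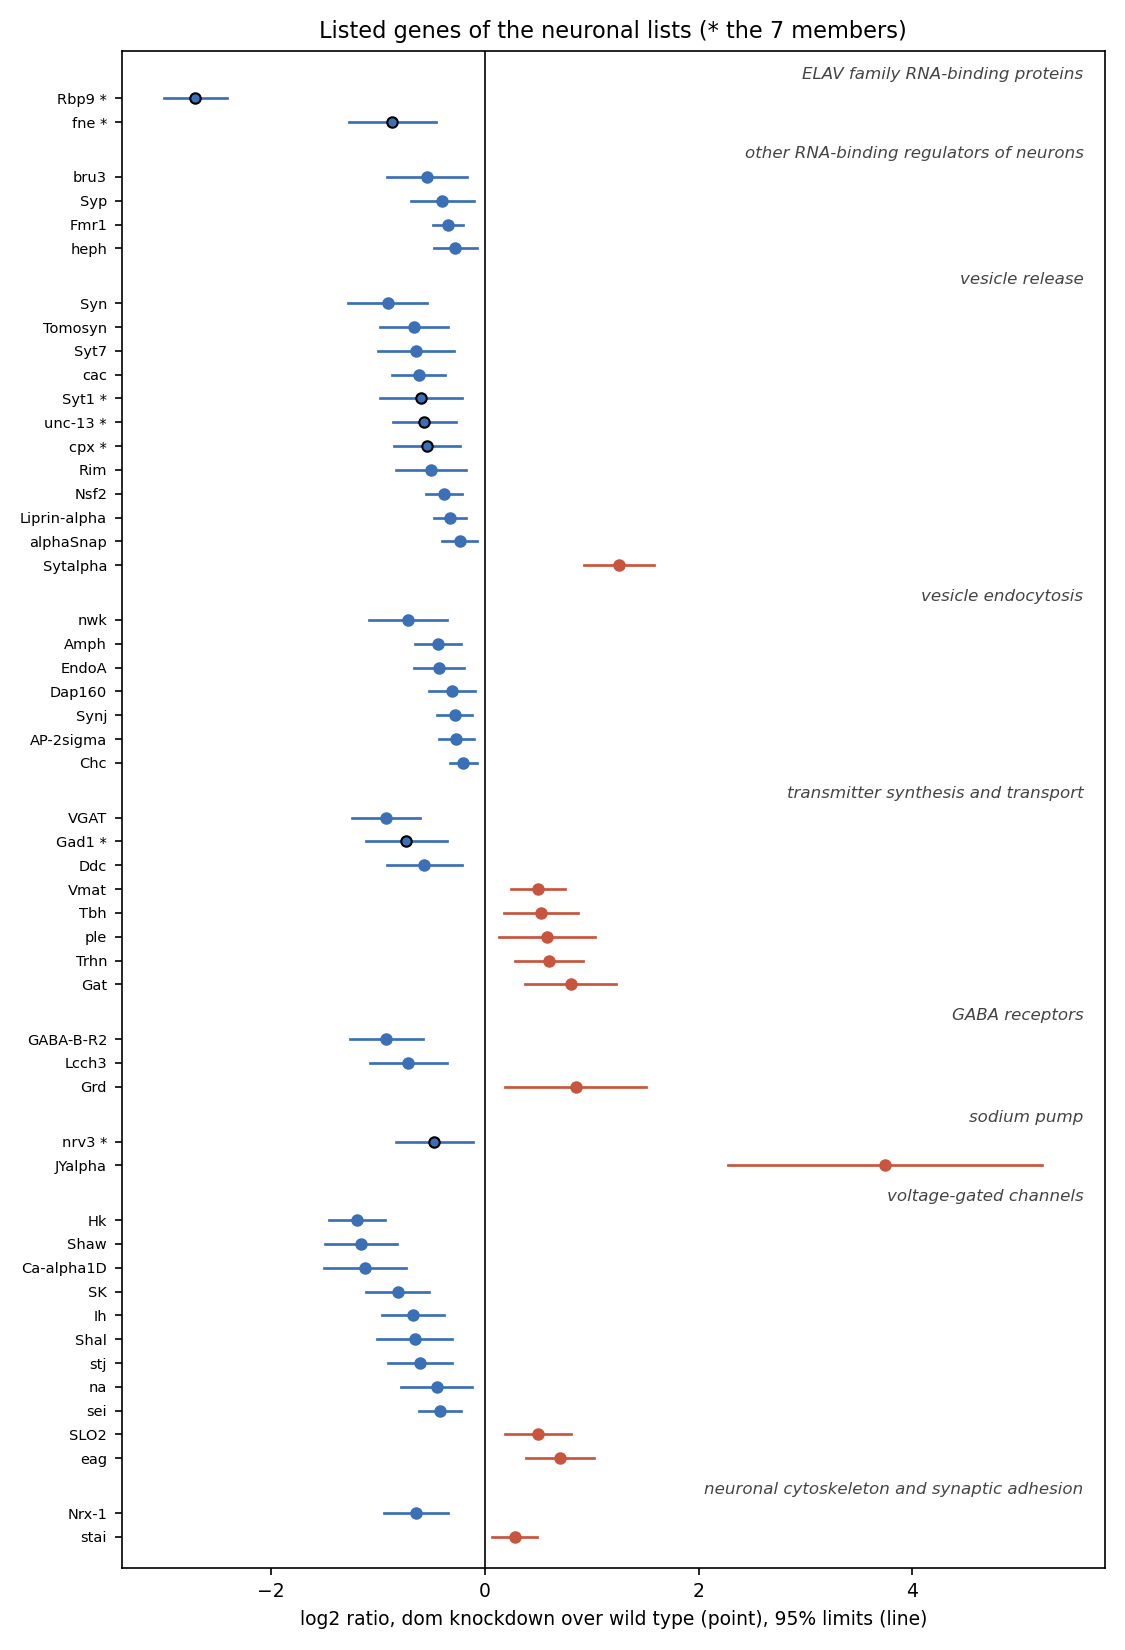
Log2 ratio of dom knockdown over wild type (horizontal axis), with 95% limits from the authors' standard errors, for each listed gene of the 9 neuronal lists (blue lower, red higher); the 7 genes are starred and outlined in black. Vesicle release, vesicle endocytosis and channel genes lie mostly to the left of 0, Trhn, Vmat, Tbh and ple to the right, and Rbp9 has the lowest ratio of all.

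Markers of other cells that a brain sort could hold were read beside these genes, with 14.2% lower and 13.9% higher over all genes as background. Of 12 glia markers 4 (33.3%) were listed, all higher, at log2 ratios per the authors' deposited table from 0.56 for repo to 1.94 for alrm, while Eaat1, moody and wrapper were among the 8 not listed. Of 11 neuroblast markers 4 were higher (36.4%) and 1 lower (9.09%), from 0.46 for nab to 0.76 for sna and -0.79 for grh per the authors' deposited table, and 6, among them dpn, ase and mira, were not listed. Of 11 blood cell markers 4 were lower (36.4%) and 0 higher, from -4.77 for PPO1 to -0.80 for Hml per the authors' deposited table. Of 8 early differentiation factors 2 were lower (25.0%) and 4 higher (50%), from pros, which ends self-renewal, at -1.78 (SE 0.27) to dap, which stops the cell cycle, at 0.65 (SE 0.14) per the authors' deposited table. In bulk RNA, fewer neurons in the sort and less RNA per neuron cannot be told apart, and the part of the cell mixture in the ratios of the 7 genes was not tested. Of the neuron markers, elav, nSyb, brp, Syx1A and futsch were outside the table. The others, Rbp9, fne and Syt1, were in it and lower, which their choice had fixed.

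**Figure D5:**
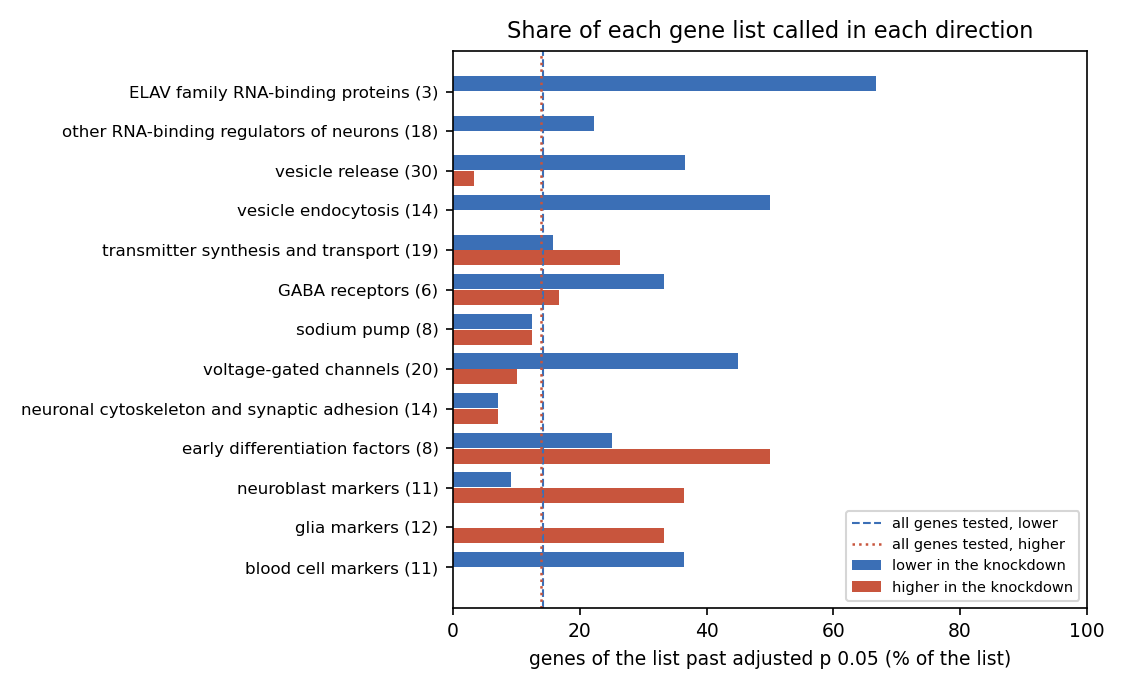
Share of the genes in each list, with the list size in parentheses, that were lower (blue) or higher (red) in the knockdown at a DESeq2 adjusted p below 0.05, with dashed and dotted lines for the shares over all genes tested, 14.2% and 13.9%. Vesicle endocytosis at 50% and the voltage-gated channel list at 45% exceed the lower line, and the cytoskeleton and adhesion list at 7.14% lies below both. The chosen genes are counted in the ELAV, vesicle release, transmitter and sodium pump bars. They make up all of the lower bars of the ELAV and sodium pump lists, so those bars are not read against the lines.

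The surroundings of the 7 genes showed no shared direction. Within 10 kb of the 7 genes there were 46 other annotated genes, of which 11 (23.9%) were listed, beside 28.0% of all genes tested. The 46 may include genes that were never tested, so these shares have unlike denominators. Of these, 6 were lower and 5 higher, and none of the 11 lay around fne. Next to Gad1, Faa was higher at a log2 ratio of 1.00 (SE 0.32) and CG14995 lower at -0.72 (SE 0.11) per the authors' deposited table. CG14989, whose span crosses that of Gad1 on the other strand without sharing exon bases, was higher at 0.44 (SE 0.16) per the authors' deposited table. CG8665, upstream of nrv3, was higher at 2.46 (SE 0.41) with a mean normalized count of 60.5 per the authors' deposited table.

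For unc-13 the neighbour lies inside the gene. Annotated genes on the other strand cover 25.2% of its exon bases, and 1 of them, asRNA:CR44029 (4:879374-884752, plus strand), was listed at a log2 ratio of -0.66 (SE 0.16, DESeq2 adjusted p 2.12e-04) per the authors' deposited table. That is close to the -0.57 of unc-13, and the antisense RNA shares 3.12% of the unc-13 exon bases. The labels do not say whether the libraries kept strand, so over the exon bases that unc-13 shares with genes on the other strand, the source of a read cannot be told apart. Syt1, cpx, Gad1, nrv3 and fne share no exon bases with another annotated gene.

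With 1 comparison, the pattern of a gene is its single ratio. The listed gene nearest in log2 ratio, among those with a mean within 2-fold, was CG7368 for Rbp9, at a difference of 0.23 among 763 candidates. For fne it was the small heat shock protein gene Hsp23, at a difference of 0.06 among 73 candidates. For Syt1, unc-13, cpx, Gad1 and nrv3 the nearest genes were CG43901, OtopLa, CG31140, tapas and FBXO11, with differences below 0.01. Of the 7 genes, Rbp9 was the farthest from its nearest gene.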

How the data were processed

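RNA was extracted with TRIzol and made into libraries with an Illumina TruSeq RNA kit, per the labels' protocols. Per the submitters' processing notes, the tools were STAR 2.3.0e, HTSeq 0.6.1, DESeq2, SAMtools 0.1.19 and FastQC 0.11.2, with build dm6. Not given in the sources used here are the annotation release, strand setting, filters and any shrinkage of ratios. Per the file headers, the authors deposited for each gene a mean of size-factor normalized counts over all libraries (a signal never below 0), a log2 ratio of control over knockdown, its standard error and Wald statistic (both read as a score), and p-values before and after adjustment.

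The table was decoded from UTF-7 and the signs were turned. The number of genes tested, 11859, was recovered from the adjusted p-values, exactly (within 0.01) in 2883 rows, and by the same step in 5 of 5 simulated tables of 12000 genes. Intervals are 95% normal limits from the authors' standard error. Symbols matched 3264 of 3326 IDs, so list counts are minimums, and a gene called not listed could stand under an unmatched ID. Positions and exons came from Ensembl release 115, on the assembly of dm6, and are 1-based. Python 3.11.15 with pandas 2.3.3 and scipy 1.17.1 was used. The genes and lists were chosen with earlier results of these data known. Up to 6 genes per list were given values, by smallest adjusted p, besides the 7 genes, listed neighbours within 10 kb and the nearest gene in ratio. Genes of the cell marker lists were named as the ends of their range. No fit could be made without values per library, and the limma fit first planned was replaced by the authors' comparison. Sequences were not used here.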

Additional observations from a re-analysis of the deposited data

How the results depend on the processing

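With an adjusted p below 0.01, 5 of the 7 genes remained, without Syt1 and nrv3. With a Bonferroni adjustment 1 remained (Rbp9), beside 499 lower and 490 higher genes in all, and 9 lower and 2 higher of the other neuronal list genes. Requiring the 95% interval to lie beyond 1.2-fold left 4 of the 7 (not Syt1, cpx or nrv3), 702 lower and 1076 higher genes in all, and 16 lower and 5 higher other list genes. Shifting all log2 ratios up by 0.1 removed nrv3 alone of the 7 and left 1104 lower genes. At an adjusted p below 0.01, 7 higher and 26 lower other list genes remained, beside 1110 higher and 1221 lower genes in all. With ratios shifted down by 0.1, 7 higher and 33 lower other list genes remained, beside 1204 higher and 1680 lower genes in all. Keeping genes whose mean count reached 50, all 7 genes and 33 lower and 9 higher other list genes were kept. The smallest mean of the 7 genes was 1780, so this floor could remove none of them. Only genes with an adjusted p below 0.05 have values, so each setting could drop genes but add none. No paired analysis was possible because the table holds no values per library; leaving out libraries and the pseudocount and filter of a fit on such values were not run for the same reason. Depth per library is unknown.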

Other observations

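Receptor families for other transmitters, chosen by symbol after the values were seen, went in different directions. Of 10 nicotinic acetylcholine receptor genes, which carry fast excitation in the fly brain, 4 were lower and 0 higher. Their log2 ratios per the authors' deposited table were -1.24 (SE 0.14) for nAChRalpha7, -1.03 (SE 0.13) for nAChRalpha4, -0.90 (SE 0.14) for nAChRalpha5 and -0.48 (SE 0.17) for nAChRbeta2. Of 17 genes for receptors of dopamine, serotonin, octopamine and tyramine, 7 were higher and 1 lower, with TyrRII at 1.15 (SE 0.17) and 5-HT2A at 0.89 (SE 0.17) the highest and DopEcR lower at -0.67 (SE 0.13) per the authors' deposited table. Mean normalized counts per the authors' deposited table were 209 for TyrRII, 427 for 5-HT2A and 4807 for DopEcR. The higher Octbeta3R and 5-HT1A had 2730 and 2840. The part of abundance in these ratios was not tested. Of all genes tested, 14.2% were lower and 13.9% higher.

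Of 13 ionotropic glutamate receptor genes 3 were higher (23.1%) and 1 lower (7.69%), beside 13.9% and 14.2% of all genes. The higher ones were rare transcripts: GluRIID and GluRIIC, subunits known from the neuromuscular junction, had log2 ratios of 3.11 (SE 0.57) and 2.85 (SE 0.38) at mean normalized counts of 23.1 and 45.8 per the authors' deposited table, and Ekar had 1.29 (SE 0.19) at 363. KaiR1D, with a mean of 14373, was lower at -0.49 (SE 0.17) per the authors' deposited table. None of the 3 muscarinic receptor genes was listed.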
